A study of Arabidopsis thaliana with 18 samples.

Results

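Transcript levels after 2 h of light were compared between seedlings of the Arabidopsis thaliana mutant jmj17-1 and its wild type Col-0, on 4 of the 18 Affymetrix ATH1 arrays of the study, 2 for each genotype. The 4 arrays were chosen by their titles. Both genotypes, the mutant in the Col-0 background, were grown on half-strength medium without sucrose in darkness for 4 days, and whole seedlings were collected either then or after 2, 4 or 8 h of light. The dark groups held 3 arrays of each genotype and the 4 h and 8 h groups 2 each, and these 14 arrays entered the estimate of the spread and the tests of whether a difference at 2 h also held at another time. The sources used here give neither the lesion in jmj17-1 nor a further allele, so the mutant stands for 1 line.

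JMJ17 is a histone demethylase of the JmjC family that removes methyl groups from H3K4, a mark carried by active genes. A seedling kept in the dark stretches its hypocotyl, keeps its cotyledons closed and pale and lives on its seed reserves. When light reaches it, photoreceptors stop the stretching, where gibberellin and auxin act, and start greening. Chlorophyll precursors made in the dark can pass energy to oxygen when first lit, and a burst of stress transcripts is known to accompany the first hours of light.

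Values are log2 of the deposited probe intensity, so a difference of 1 is a factor of 2. Of the 22810 probe sets on the array, the deposited table with titled columns holds 6847, and 6514 of these name a single gene. A second deposited table labels 16 of its 18 columns with another array's title, and the values are given here by the titles of the first. The sources used here give no rule by which the authors kept the 6847. Each of them has an unadjusted p of at most 0.0237 between the dark and 2 h arrays of the mutant (limma on those 5 arrays), whereas 9.81 percent of the other 15963 had a p under 0.05. Under a fit of the 4 arrays at 2 h alone, 20.3 percent of the kept probe sets had an unadjusted p under 0.05 between the genotypes, against 10.6 percent of the other 15963. Over the 6847 kept probe sets, the correlation between arrays was 0.993 for the wild-type replicates and 0.997 for the mutant replicates, and 0.987 to 0.991 between genotypes. The median SD within a group was 0.096 in wild type and 0.060 in the mutant. Whether the choice of probe sets favoured close mutant replicates was not tested. Mutant dark replicate 2 correlated at 0.985 with the other arrays of its group, which correlated at 0.995 with each other. Separate cultures are not stated for the replicates, and the p-values cover no more than the spread seen among these arrays, possibly a technical one. No single-gene probe set for JMJ17 was in the table, and its transcript is not analysed here.

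The label of whole seedling was checked on organ markers. The root endodermis genes CASP1 (10.37 and 10.49 in wild type, 10.54 and 10.53 in the mutant) and CASP5 were measured beside the cotyledon genes RCA (12.45 and 12.53, then 12.72 and 12.72) and LHCB3 (12.76 and 12.83, then 12.84 and 12.81). Of 6 root markers 0 passed the test between genotypes (limma, 1 with an unadjusted p under 0.05), with differences from -0.21 to 0.42. Of 4 markers of green cotyledons 1 passed, LHCB4.3. Of 4 markers of dividing cells, 2 of seed, 2 of guard cells and 1 of phloem 0 passed, with an unadjusted p under 0.05 for 1 of dividing cells and for the phloem gene SUC2, at 0.34 (adjusted p = 0.142). These arrays hold RNA of whole seedlings, in which fewer cells of a type and less RNA per cell cannot be told apart.

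After 2 h in the light, transcripts of many stress and defence genes were scarcer in jmj17-1, and those of a few genes of gibberellin synthesis and auxin response were more abundant. Among cell wall genes 2 rose and 4 fell, or 3 and 1 after either quantile normalization or median centring. In all 294 probe sets fell and 67 rose (limma on all 18 arrays, adjusted p under 0.05 after Benjamini-Hochberg over the 6847 probe sets), which is 5.27 percent of those tested, 4.29 percent as falls and 0.979 percent as rises. The median fall was -0.58 and the median rise 0.50, against a median of -0.04 over all 6847, and 35 falls but 1 rise reached a factor of 2. Both mutant arrays lay outside the range of both wild-type arrays in every call, but this held for 53.6 percent of all probe sets. Falls outnumbered rises under both rescalings, with 213 falls and 120 rises after quantile normalization and 203 and 109 after median centring.

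Single arrays weighed on these counts. There were 114 falls and 26 rises without wild-type replicate 1, 103 and 27 without mutant replicate 1, and 83 and 5 without mutant replicate 2. Without mutant dark replicate 2 there were 442 and 145. Of the calls, 65 falls and 3 rises passed whichever of the 4 arrays at 2 h was left out, and all 361 kept their sign.

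The largest fall was in AT1G50410, whose product is a chromatin remodeller of the SNF2 type. It stood at 5.63 and 5.99 in the wild-type arrays and at 3.13 and 3.08 in the mutant arrays. The difference was -2.71 ± 0.15 (log2 ± SE, n = 2 and 2; adjusted p = 7e-08), but its mutant mean lay within the dimmest 5 percent, where the exact size is not established. The peroxidase gene AT4G36430 stood at 9.26 and 10.02 in wild type against 7.35 and 7.10 in the mutant, a fall of 2.41 ± 0.22 (adjusted p = 3.83e-05). The wild-type arrays lay further from each other than the mutant arrays did, and both stood well above them. AT1G50410 and AT4G36430 were also lower in the mutant at each other time, by -1.87 and -2.21 in the dark, -2.69 and -1.44 at 4 h and -2.65 and -1.92 at 8 h (largest adjusted p = 0.00402).

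GSTU12, for a glutathione transferase of the tau class that joins glutathione to toxic compounds, was at 7.58 and 7.68 in wild type and 5.67 and 5.57 in the mutant. This was a 4.02-fold fall (-2.01 ± 0.22, adjusted p = 0.000132). GSTU12 was also lower in the dark (-1.34, adjusted p = 0.00111), and did not pass at 4 h (-0.75, adjusted p = 0.0827). It was the 1 member to pass at 2 h among 20 measured glutathione transferases, whose median was -0.17. That share of 5.0 percent was near the 5.27 percent of all probe sets. AT2G28210, for an alpha carbonic anhydrase that interconverts carbon dioxide and bicarbonate, was at 5.88 and 5.93 against 3.98 and 3.93. The replicates of each genotype nearly coincided, and the fall was 1.95 ± 0.18 (adjusted p = 3.83e-05), with the mutant mean among the dimmest 5 percent. AT1G26380, for a FAD-linked oxidoreductase of the berberine bridge enzyme family, fell by 1.43 ± 0.19 (adjusted p = 0.000844).

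**Figure D1:**
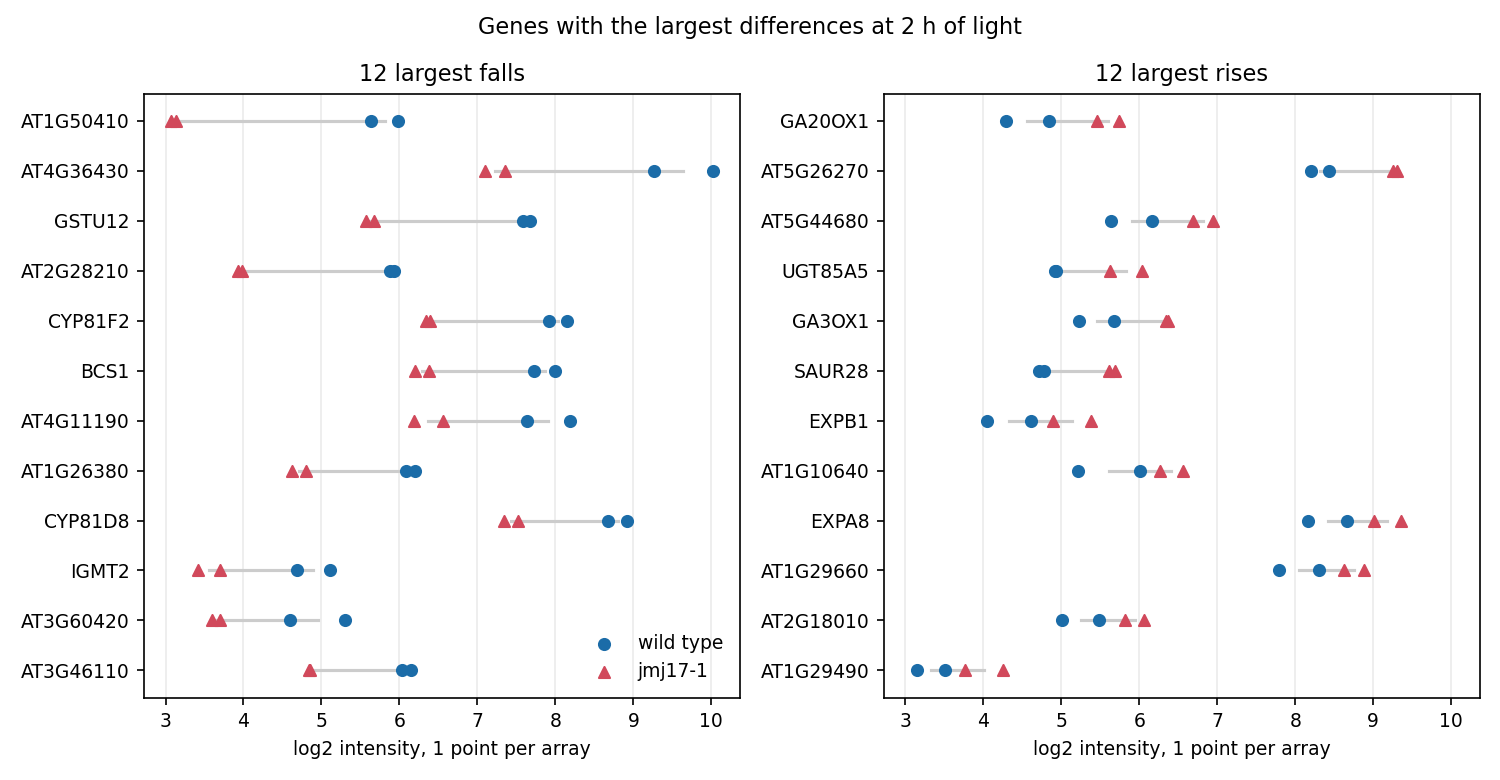
Log2 intensity on each of the 4 arrays at 2 h of light for the 12 largest falls (left) and the 12 largest rises (right) among single-gene probe sets past the threshold, with circles for wild type, triangles for jmj17-1 and a grey line between the group means. No groups overlap, and the falls, up to -2.71, were larger than the rises, of which the largest was 1.04.

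Among the 12 largest falls, AT4G11190, AT3G60420 and AT3G46110 were given no role here. AT4G11190 was at 7.64 and 8.18 against 6.56 and 6.18, and its fall of 1.54 ± 0.36 (adjusted p = 0.025) was lost whichever of the 4 arrays was left out. AT3G60420, with its mutant mean among the dimmest 5 percent, fell by 1.31 ± 0.33 (adjusted p = 0.0316) and passed in 1 of the 4 cases where an array at 2 h was left out. AT3G46110 was at 6.04 and 6.15 against 4.85 and 4.84, and its fall of 1.25 ± 0.14 (adjusted p = 0.000132) passed in all 4.

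Of 13 measured genes that mark singlet oxygen and mitochondrial stress, 4 fell and 0 rose at 2 h, with a median of -0.54. BCS1, also known as OM66, encodes an ATPase of the outer mitochondrial membrane and is used as a marker of mitochondrial stress. It was at 7.73 and 8.00 in wild type and 6.38 and 6.21 in the mutant, a 2.97-fold fall (-1.57 ± 0.20, adjusted p = 0.000483). CYP81D8, for a cytochrome P450 induced by many stresses, was at 8.67 and 8.92 against 7.34 and 7.52 (-1.37 ± 0.23, adjusted p = 0.00358). BCS1 and CYP81D8 were also lower in the dark, by -0.99 and -0.91, and at 4 h, by -0.85 and -1.64 (largest adjusted p = 0.0359). Both passed whichever of the 4 arrays was left out.

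SIB1, for a plastid and nuclear protein that binds a sigma factor, and NDB2, for an alternative NADH dehydrogenase of mitochondria, fell less firmly. SIB1 was at 5.90 and 4.87 in the wild-type arrays, which differed by more than 1, and at 4.3 and 4.16 in the mutant (-1.15 ± 0.24, adjusted p = 0.0131). Its difference was -0.64 without wild-type replicate 1 and -1.67 without replicate 2. NDB2 was at 7.93 and 7.93 against 7.34 and 7.44 (-0.54 ± 0.13, adjusted p = 0.0286). The list had 2, 3, 2 and 2 falls without wild-type replicates 1 and 2 and mutant replicates 1 and 2.

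Of 16 factors that govern or assist the heat response, 5 fell, 1 rose and 10 did not pass. The falls depended on the processing. They numbered 2 after quantile normalization, 1 after median centring, 2 with the 2 h arrays fitted alone, 1 with the second table and 4 with array weights. HSFA2, the heat stress factor that prolongs the response, was at 7.84 and 7.18 in wild type and 6.41 and 6.51 in the mutant (-1.05 ± 0.23, adjusted p = 0.0161). MBF1C, a transcriptional coactivator of thermotolerance, was at 11.51 and 11.28 against 10.74 and 10.87 (-0.59 ± 0.15, adjusted p = 0.0354). Fes1A, which guards cytosolic HSP70, fell by 0.68 ± 0.18 (adjusted p = 0.0447), HSA32, of long-term thermotolerance, by 0.43 ± 0.12 (adjusted p = 0.047) and HSFB3 by 0.40 ± 0.10 (adjusted p = 0.039). HSFC1 was the rise, from 6.70 and 6.52 to 6.98 and 7.35 (0.55 ± 0.15, adjusted p = 0.0441).

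Of 16 large chaperones 4 fell and 0 rose, and all 16 had differences below 0, or 15 of 16 after quantile normalization, median centring and without each of wild-type replicates 1 and 2 and mutant replicate 1. ATERDJ3A, for a DnaJ-type co-chaperone of the endoplasmic reticulum, was at 7.52 and 7.47 in wild type and 6.61 and 6.68 in the mutant (-0.85 ± 0.15, adjusted p = 0.00474). It alone among them passed whichever of the 4 arrays was left out. HSP90.1 (11.04 and 10.68 against 9.93 and 9.90) fell by 0.95 ± 0.19 (adjusted p = 0.00853), and Hsp70b (9.60 and 8.78 against 8.25 and 8.38) fell by 0.87 ± 0.20 (adjusted p = 0.0221).

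Of 6 small heat shock proteins, which hold unfolding proteins in solution, 2 fell: ATHSP22.0 of the endoplasmic reticulum (-0.87 ± 0.18, adjusted p = 0.0127) and HSP21 of the chloroplast (-0.87 ± 0.23, adjusted p = 0.0375). The mean of the 6 was 9.05 and 8.39 in the wild-type arrays and 7.94 and 7.96 in the mutant arrays. Wild-type replicate 1 was thus the highest of the 4, and the median difference of -0.77 was -0.45 without it and -1.10 without replicate 2, with 0 and 6 falls. Without either mutant array 0 fell. Among the 16 large chaperones there were 1, 7, 1 and 1 falls without wild-type replicates 1 and 2 and mutant replicates 1 and 2, and among the heat stress factors 1, 5, 0 and 0.

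The wild-type arrays were closer together for genes of protein folding in the endoplasmic reticulum. Of 11 measured, 4 fell and 0 rose, the median was -0.34, and all 11 were below 0, or 10 of 11 without wild-type replicate 1. BZIP60, the transcription factor that turns on this folding response, was at 10.17 and 10.25 in wild type and 9.62 and 9.65 in the mutant (-0.58 ± 0.09, adjusted p = 0.00207), and it passed whichever of the 4 arrays was left out. PDIL1-2, a protein disulfide isomerase, was at 7.21 and 7.36 against 6.75 and 6.54 (-0.64 ± 0.14, adjusted p = 0.0191). CNX1, the lectin chaperone calnexin, fell by 0.55 ± 0.14 (adjusted p = 0.0354) and SDF2, of glycoprotein quality control, by 0.41 ± 0.10 (adjusted p = 0.0227). These falls numbered 2, 1, 3 and 1 without wild-type replicates 1 and 2 and mutant replicates 1 and 2.

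Among transcription factors and signalling proteins of wounding and pathogen responses, part of each list fell. Of 18 WRKY genes 5 fell, 0 rose and 13 did not pass. WRKY40, a repressor in these responses, was at 9.06 and 8.63 in wild type and 7.84 and 7.86 in the mutant (-0.99 ± 0.12, adjusted p = 0.000396). WRKY46 was at 6.39 and 6.21 against 5.63 and 5.67 (-0.64 ± 0.10, adjusted p = 0.00166). Both passed whichever of the 4 arrays was left out. WRKY22 fell by 0.80 ± 0.14 (adjusted p = 0.00514), WRKY33 by 0.88 ± 0.22 (adjusted p = 0.0316) and WRKY53 by 0.45 ± 0.12 (adjusted p = 0.0354), and the list had 2, 3, 2 and 3 falls without wild-type replicates 1 and 2 and mutant replicates 1 and 2.

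Of 24 ethylene response and DREB factors 3 fell (12.5 percent called, against 5.27 percent of all probe sets). All were of the ERF branch: ERF6 (8.48 and 8.13 against 7.15 and 7.29), ERF2 (6.77 and 5.93 against 5.57 and 5.46) and ERF5 (6.97 and 6.88 against 6.39 and 6.43). ERF6 fell by 1.08 ± 0.16 (adjusted p = 0.00149) and was the 1 of them to pass whichever of the 4 arrays was left out. Among 18 genes of ethylene synthesis and signalling 0 passed (limma, 4 lower and 0 higher with an unadjusted p under 0.05). The ethylene-forming oxidase gene EFE stood at -0.27 ± 0.10 (adjusted p = 0.12).

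Calcium signalling genes and zinc finger factors formed a list of 26, of which 5 fell and 0 rose, with a median of -0.21. The share called was 19.2 percent, against 5.27 percent of all probe sets. CML37, a calmodulin-like calcium sensor, was at 5.61 and 5.51 in wild type and 4.45 and 4.29 in the mutant, a 2.28-fold fall (-1.19 ± 0.21, adjusted p = 0.00456). AT3G22910, for an autoinhibited calcium pump, fell by 0.79 ± 0.15 (adjusted p = 0.00567), the touch-induced calmodulin-like gene TCH3 by 0.58 ± 0.14 (adjusted p = 0.0311), CML41 by 0.68 ± 0.18 (adjusted p = 0.0406) and the calcium-dependent kinase gene CPK32 by 0.39 ± 0.11 (adjusted p = 0.0457). Without wild-type replicates 1 and 2 and mutant replicates 1 and 2 there were 1, 3, 3 and 0 falls.

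Of 14 defence and salicylate genes 5 fell and 0 rose. MPK11, a mitogen-activated protein kinase gene of pathogen recognition, was at 5.75 and 5.93 in wild type and 4.47 and 4.81 in the mutant (-1.20 ± 0.17, adjusted p = 0.00102) and passed whichever of the 4 arrays was left out. MKK4, an upstream kinase, fell by 0.45 ± 0.10 (adjusted p = 0.0193), the ubiquitin ligase genes PUB22 and PUB23 by 0.48 ± 0.11 (adjusted p = 0.0193) and 0.57 ± 0.14 (adjusted p = 0.0257), and PAD4, a regulator of salicylate defence, by 0.36 ± 0.09 (adjusted p = 0.0281). The count was 1, 5, 1 and 1 without the arrays in the same order.

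Of 17 jasmonate genes 4 fell and 0 rose. JAZ10, a repressor of jasmonate signalling that jasmonate itself induces, was at 6.59 and 6.54 in wild type and 5.80 and 5.76 in the mutant (-0.79 ± 0.14, adjusted p = 0.00532). The cyclase gene AOC3 of jasmonate synthesis fell by 0.63 ± 0.15 (adjusted p = 0.0286), the dim JAZ5, with both means among the dimmest 5 percent, by 0.54 ± 0.14 (adjusted p = 0.0353) and OPCL1, of the last steps of synthesis, by 0.44 ± 0.12 (adjusted p = 0.0448). JAZ10 was lost without mutant replicate 2 (adjusted p = 0.0624), and the list had 1, 3, 1 and 0 falls without the arrays in that order.

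Genes of indole glucosinolates, sulfur-rich defence compounds made from tryptophan, fell at several steps of the pathway. Of 16 measured 8 fell and 0 rose, with a median of -0.45. ASA1 and TSA1, of tryptophan synthesis, fell by 0.63 ± 0.12 (adjusted p = 0.00727) and 0.74 ± 0.16 (adjusted p = 0.0189). CYP79B2 and CYP79B3, for the enzymes that turn tryptophan into its oxime, fell by 0.67 ± 0.13 (adjusted p = 0.00907) and 0.49 ± 0.13 (adjusted p = 0.0367). GGP1, for a peptidase that trims the glutathione conjugate of the pathway, was at 9.14 and 9.11 against 8.39 and 8.33 (-0.76 ± 0.15, adjusted p = 0.00832).

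The 2 largest falls of that list were at late modification steps. CYP81F2, which hydroxylates the indole ring, was at 8.14 and 7.91 in wild type and 6.39 and 6.34 in the mutant (-1.66 ± 0.32, adjusted p = 0.00779). IGMT2, a methyltransferase gene that acts after it, was at 4.69 and 5.10 against 3.42 and 3.70 (-1.34 ± 0.20, adjusted p = 0.00159, mutant mean among the dimmest 5 percent). Another late gene, CYP81F4, stood at 0.02 (adjusted p = 0.978). Of the regulators, MYB51 fell by 0.59 ± 0.14 (adjusted p = 0.0244) and MYB34 stood at 0.43 (adjusted p = 0.0945). IGMT2 passed whichever of the 4 arrays was left out, CYP81F2 passed without wild-type replicate 2 only, and the list had 4 falls without wild-type replicate 1, 6 and 1 rise without replicate 2, and 3 and 1 falls without mutant replicates 1 and 2. Of the aliphatic branch 2 genes were measured, and SOT17, a sulfotransferase gene of the last core step, fell from 5.33 and 5.57 to 4.77 and 4.65 (-0.74 ± 0.09, adjusted p = 0.000307).

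Sulfate assimilation, which supplies sulfur to these compounds and to glutathione, held a pair of firm falls. APR1, for the reductase that commits activated sulfate to reduction, was at 8.67 and 8.61 in wild type and 7.40 and 7.49 in the mutant, a 2.28-fold fall (-1.19 ± 0.21, adjusted p = 0.00456). APS1, for the enzyme that activates sulfate, was at 10.09 and 9.91 against 9.37 and 9.34 (-0.65 ± 0.11, adjusted p = 0.00263). Both passed whichever of the 4 arrays was left out. They were the 2 falls, with 0 rises, among 22 genes of nitrate and sulfate assimilation (9.09 percent called, against 5.27 percent of all probe sets). The median of these 22 was -0.13, and APR3 stood at -0.69 (adjusted p = 0.0535).

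Genes that rise when a plant runs out of sugar were lower in part. Of 29 measured 4 fell and 0 rose (13.8 percent called, against 5.27 percent of all probe sets), with a median of -0.15. The DIN gene AT4G35770, also named SEN1, was at 11.63 and 11.37 against 10.98 and 11.00 (-0.51 ± 0.10, adjusted p = 0.00907). ASN1, of asparagine synthesis, was at 11.24 and 10.84 against 10.55 and 10.60, and MCCA and MCCB, for the subunits of a carboxylase of leucine breakdown, fell by 0.42 ± 0.09 (adjusted p = 0.0104) and 0.39 ± 0.10 (adjusted p = 0.0372). The falls numbered 0 without wild-type replicate 1, where 1 gene rose, 5 without replicate 2 and 0 without either mutant array. Of 12 genes of fatty acid breakdown and the glyoxylate cycle 1 fell (8.33 percent, against 5.27 percent of all probe sets). It was the acyl-CoA oxidase gene ACX2 (-0.31 ± 0.09, adjusted p = 0.0482).

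Gibberellin synthesis genes were among the largest rises. Of 22 gibberellin genes 3 rose and 0 fell, with a list median of 0.01. The share called was 13.6 percent, against 5.27 percent of all probe sets and 0.979 percent as rises. The 3 were all for enzymes of the last steps of synthesis. GA20OX1 was at 4.29 and 4.84 in wild type and 5.46 and 5.74 in the mutant, a 2.05-fold rise (1.04 ± 0.21, adjusted p = 0.0101). GA3OX1 was at 5.23 and 5.68 against 6.34 and 6.36 (0.90 ± 0.16, adjusted p = 0.00402), and GA3OX2 at 5.31 and 5.45 against 5.73 and 5.70 (0.33 ± 0.09, adjusted p = 0.0358). GA3OX1 was lost without wild-type replicate 1 alone (0.68, adjusted p = 0.0587), and 0, 4, 2 and 1 members rose without wild-type replicates 1 and 2 and mutant replicates 1 and 2. Without wild-type replicate 1 another member fell.

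Early auxin response genes followed. Of 59 measured 5 rose and 0 fell, 41 were above 0 and the median was 0.19. The share called was 8.47 percent, against 5.27 percent of all probe sets and 0.979 percent as rises. SAUR genes encode small proteins that promote cell expansion. SAUR28 was at 4.78 and 4.71 in wild type and 5.61 and 5.68 in the mutant (0.90 ± 0.16, adjusted p = 0.00481). SAUR23 rose by 0.63 ± 0.17 (adjusted p = 0.0432), AT2G18010, another SAUR gene, by 0.70 ± 0.19 (adjusted p = 0.0482), AT1G29490, a dim one of the same family, by 0.68 ± 0.17 (adjusted p = 0.0316), and IAA11, an auxin repressor gene, by 0.46 ± 0.12 (adjusted p = 0.0325). The rises numbered 3, 13, 2 and 0 without wild-type replicates 1 and 2 and mutant replicates 1 and 2, and without wild-type replicate 1 the median was 0.05. Of 28 genes of auxin synthesis, transport and signalling 0 passed (limma, 1 higher and 0 lower with an unadjusted p under 0.05).

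Cell wall genes moved both ways. Of 41 measured 2 rose and 4 fell (14.6 percent called, against 5.27 percent of all probe sets). The balance turned under both rescalings, with 3 rises and 1 fall after quantile normalization and the same after median centring. The risers were expansin genes, whose products loosen the wall: EXPA8 (8.16 and 8.67 against 9.01 and 9.35, 0.77 ± 0.15, adjusted p = 0.0101) and EXPB1 (4.04 and 4.61 against 4.90 and 5.37, 0.81 ± 0.20, adjusted p = 0.029). The genes that fell were XTH20 (5.24 and 5.73 against 4.71 and 4.36, -0.95 ± 0.18, adjusted p = 0.00717) and XTR6 (-0.53 ± 0.14, adjusted p = 0.0402), of xyloglucan remodelling, the dim expansin-like EXLA3 (-0.37 ± 0.10, adjusted p = 0.0412) and PHI-1, of the EXORDIUM family (-0.39 ± 0.11, adjusted p = 0.0479). Rises and falls numbered 0 and 1, 5 and 1, 2 and 2, and 0 and 0 without wild-type replicates 1 and 2 and mutant replicates 1 and 2.

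Other large rises lay outside the lists. AT5G26270, of unknown role, was at 8.21 and 8.43 in wild type and 9.25 and 9.30 in the mutant (0.96 ± 0.10, adjusted p = 0.000105) and passed whichever of the 4 arrays was left out. It was higher at each other time as well, by 0.76 in the dark, 1.12 at 4 h and 1.16 at 8 h (largest adjusted p = 0.000143). The glycosyltransferase gene UGT85A5 (0.90 ± 0.24, adjusted p = 0.0432) was lost whichever of them was left out, and AT5G44680, for a DNA repair glycosylase, AT1G10640, for a polygalacturonase, and AT1G29660, for an ester hydrolase, rose by 0.91, 0.80 and 0.71 with adjusted p of 0.00426, 0.0423 and 0.00921. Of 23 brassinosteroid and sterol genes 1 fell and 0 rose, a share of 4.35 percent near the 5.27 percent of all probe sets. The gene that fell was CYP90D1, of brassinosteroid synthesis, at 5.47 and 5.48 against 4.98 and 5.09 (-0.44 ± 0.07, adjusted p = 0.00282).

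**Figure D2:**
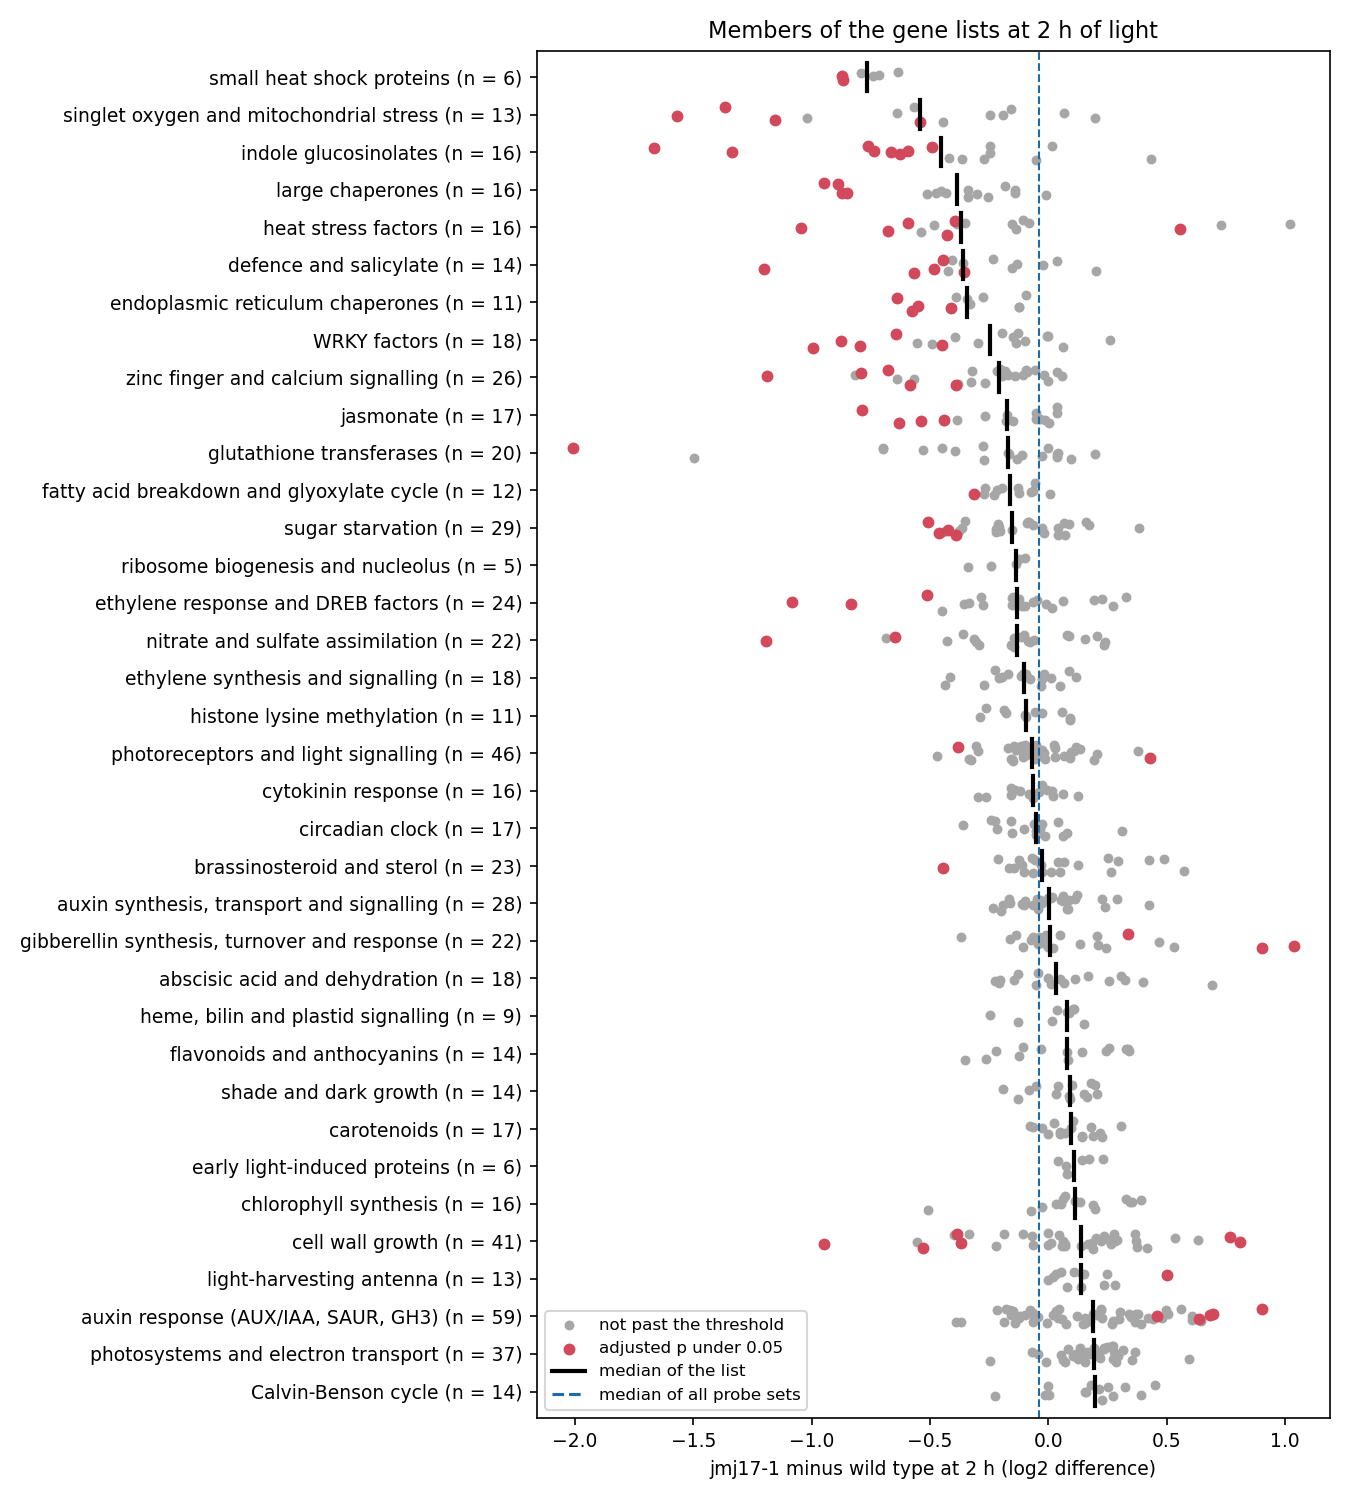
Log2 difference between jmj17-1 and wild type at 2 h for each member of the gene lists with at least 5 measured genes, in order of the list median. Red points passed the test, grey points did not, black bars are list medians and the dashed line is the median of all 6847 probe sets, -0.04. The medians ran from -0.77 for small heat shock proteins to 0.20 for the Calvin-Benson cycle.

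The greening programme itself showed few calls at 2 h. Of 16 chlorophyll synthesis genes 0 passed (limma, 0 with an unadjusted p under 0.05), with a median of 0.11. CHLM, a methyltransferase gene of that pathway, stood at 0.20 ± 0.11 (adjusted p = 0.329) and PORA, the dark-type protochlorophyllide reductase gene, at -0.51 ± 0.33 (adjusted p = 0.417), which passed without mutant dark replicate 2 (adjusted p = 0.035). Among the 13 genes of the antenna, LHCB4.3 rose, from 7.36 and 7.79 to 8.18 and 7.98 (0.50 ± 0.13, adjusted p = 0.0372), a call lost without wild-type replicate 1 or either mutant array. The antenna share called was 7.69 percent, against 5.27 percent of all probe sets. Of 37 photosystem and electron transport genes 0 passed (1 lower with an unadjusted p under 0.05), 33 were above 0 and the median was 0.19. The 14 Calvin-Benson genes (0 passed, 1 higher with an unadjusted p under 0.05) had a median of 0.20, with CP12-2, a regulator of the cycle, at 0.39 ± 0.13 (adjusted p = 0.084). The 6 early light-induced proteins, 17 carotenoid genes and 14 genes of shade and dark growth had 0 calls and 0 members with an unadjusted p under 0.05.

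Of 46 photoreceptor and light signalling genes 1 rose and 1 fell, a share of 4.35 percent near the 5.27 percent of all probe sets: BBX18, a B-box repressor of seedling greening responses (7.87 and 7.98 against 8.31 and 8.40, 0.43 ± 0.11, adjusted p = 0.0316), and the phytochrome gene PHYD (7.09 and 6.88 against 6.65 and 6.56, -0.38 ± 0.10, adjusted p = 0.0316). Both passed in 1 of the 4 cases where an array at 2 h was left out. Of 17 clock genes 0 passed (1 higher and 2 lower with an unadjusted p under 0.05), of 18 abscisic acid and dehydration genes 0 (2 higher), of 14 flavonoid genes 0 (2 lower), of 16 cytokinin genes 0 (0), of 9 heme and plastid signalling genes 0 (1 lower), of 5 nucleolar genes 0 (2 lower) and of 3 class III peroxidases listed by symbol 0 (2 higher). That list does not hold the peroxidase gene AT4G36430, the 1 gene that fell among 36 with a peroxidase term in the deposited table. Among 11 histone lysine methylation genes 0 passed (2 lower), with the H3K4 methyltransferase gene ATX1 at -0.29 ± 0.11 (adjusted p = 0.143).

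The genotypes were then compared at the other times to ask which differences were held at 2 h alone. In the dark 123 probe sets were called (1.80 percent), at 4 h 186 (2.72 percent) and at 8 h 87 (1.27 percent). Of the calls at 2 h, 11.4 percent were also called in the dark, 21.1 percent at 4 h and 4.71 percent at 8 h, which is 33.3, 40.9 and 19.5 percent of the calls at those times. The shared calls had the same sign in 40 of 41 cases in the dark, 76 of 76 at 4 h and 10 of 17 at 8 h. The 294 falls had median differences of -0.15 in the dark, -0.28 at 4 h and 0.04 at 8 h, and the 67 rises 0.13 at each of these times. Stress lists had calls at other times too. At 4 h falls numbered 5 of 6 small heat shock proteins, 4 of 16 large chaperones, 5 of 18 WRKY genes and 4 of 13 singlet oxygen and mitochondrial stress genes. In the dark these numbers were 0, 1, 2 and 3, and at 8 h 0 in each. The jasmonate list and the defence list had 3 falls each in the dark and 0 at 4 h, where 1 defence gene rose.

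**Figure D3:**
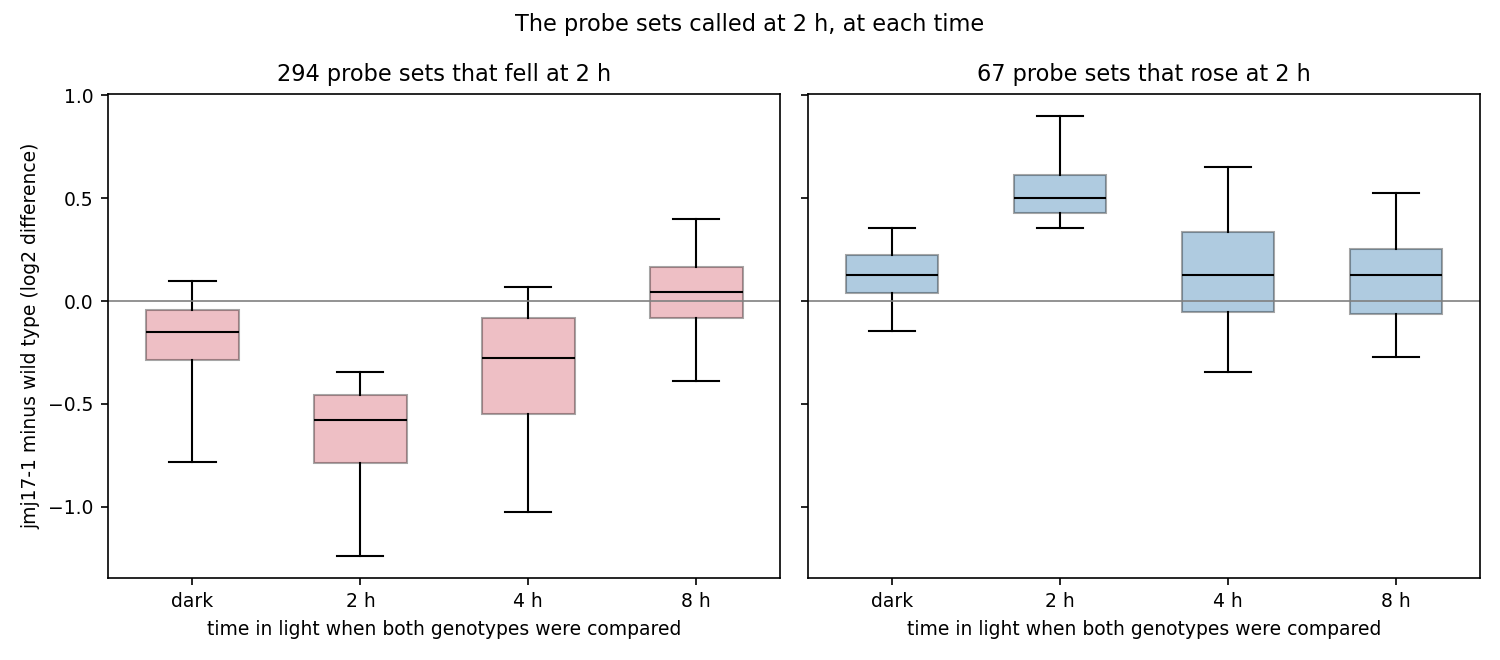
Log2 difference between jmj17-1 and wild type in the dark and after 2, 4 and 8 h of light for the 294 probe sets that fell (left) and the 67 that rose (right) at 2 h. Boxes span the quartiles with the median as a line, and whiskers run from the 5th to the 95th percentile over probe sets. The probe sets were chosen at 2 h, so the boxes at that time are set by the choice, and the falls had medians of -0.15, -0.28 and 0.04 at the other times.

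Of the 361 calls at 2 h, 320 were not called in the dark, but a test of the difference between times passed few genes. The genotype difference at 2 h differed from that in the dark for 7 probe sets (0.102 percent) and from that at 4 h for 7 (0.102 percent), against 945 and 631 with an unadjusted p under 0.05. It differed from that at 8 h for 174 (2.54 percent), 145 of them more negative at 2 h (2.12 percent), and 124 of the 174 were also called at 2 h. The counts against the dark ran from 0 to 44 and those against 4 h from 0 to 18 when single arrays were left out, with 0 in both cases without mutant replicate 2 of the 2 h group and 0 against 4 h without either mutant array at 4 h. The highest counts, 44 and 18, came without wild-type replicate 2 at 2 h and without mutant dark replicate 2.

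AT2G28210, the carbonic anhydrase gene, passed between genotypes at 2 h, while its differences were -0.04, -0.27 and 0.11 in the dark, at 4 h and at 8 h (adjusted p = 0.903, 0.551 and 0.85). Its wild-type arrays read 3.98, 3.46 and 3.64 in the dark, 5.88 and 5.93 at 2 h, 3.56 and 4.19 at 4 h and 4.01 and 3.65 at 8 h. The mutant arrays read 3.62, 3.67 and 3.68, then 3.98 and 3.93, then 3.54 and 3.66, then 4.04 and 3.85. The wild type thus stood high at 2 h and no mutant array did. The difference at 2 h exceeded that in the dark (adjusted p = 0.00529), at 4 h (adjusted p = 0.0241) and at 8 h (adjusted p = 0.00157).

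AT1G35210, of unknown role, and AT1G33590, for a leucine-rich repeat protein, also passed at 2 h alone. AT1G35210, dim in the mutant, was at 4.59 and 4.87 in wild type and 3.82 and 3.50 in the mutant at 2 h (-1.07 ± 0.12, adjusted p = 0.000132), with differences of -0.08 in the dark, 0.10 at 4 h and 0.09 at 8 h. AT1G33590 was at 9.31 and 9.30 against 8.65 and 8.80 (-0.58 ± 0.09, adjusted p = 0.00169), with 0.07, 0.14 and -0.06 at those times. Each passed the tests against all 3 other times.

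WRKY40 differed at 2 h from the dark (adjusted p = 0.0411) and from 8 h (adjusted p = 0.00478), while its difference at 4 h, -0.90, was close to the -0.99 at 2 h. IRT3, a zinc and iron transporter gene, had a difference of -0.29 in the dark and 0.35 ± 0.08 at 2 h (8.09 and 8.05 in wild type, 8.44 and 8.40 in the mutant), and the change passed (adjusted p = 0.0382). Its rise at 2 h (adjusted p = 0.0244) was lost whichever of the 4 arrays was left out. SAUR28 had a difference of 0.90 at 2 h and -0.50 at 4 h (adjusted p = 0.0316 for the change), and the value at 4 h did not itself pass (adjusted p = 0.129).

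APR1 had a difference of -0.05 in the dark, 0.02 at 4 h and 0.00 at 8 h against -1.19 at 2 h. Its wild-type arrays read 4.95, 4.16 and 4.82 in the dark, 8.67 and 8.61 at 2 h, and between 4.78 and 5.32 later, so both genotypes were high at 2 h and the wild type more so. The test against 8 h passed (adjusted p = 0.0484), and those against the dark (adjusted p = 0.102) and 4 h (adjusted p = 0.198) did not.

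**Figure D4:**
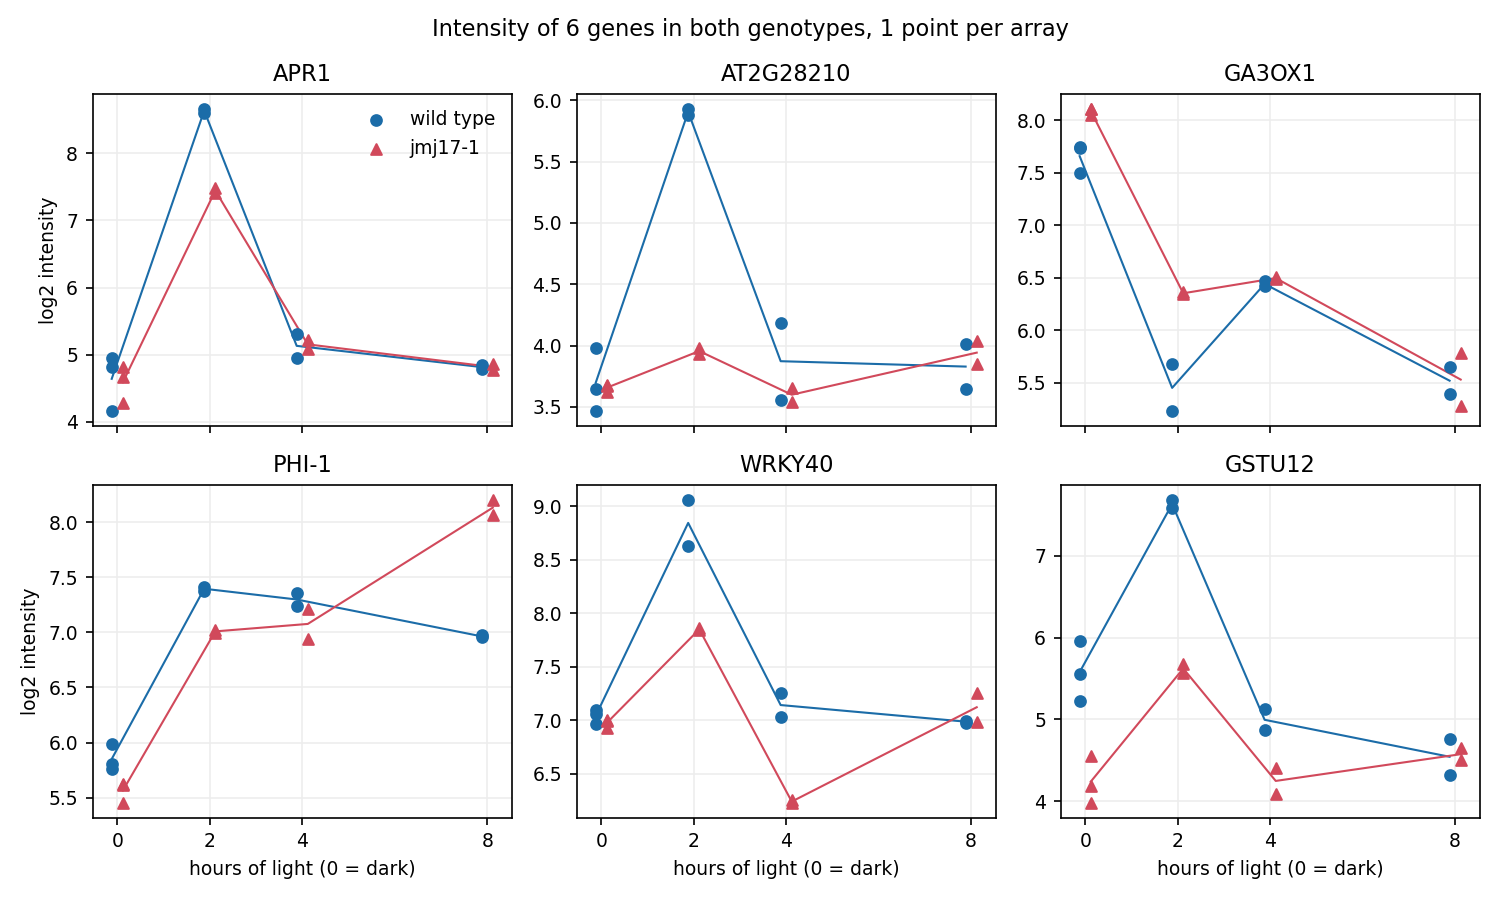
Log2 intensity of 6 genes on each of the 18 arrays against hours of light, with circles and blue lines for wild type and triangles and red lines for jmj17-1, where lines join group means. APR1, AT2G28210, WRKY40 and GSTU12 peaked at 2 h in wild type, GA3OX1 dropped by 2.21 to 2 h in wild type and by 1.74 in the mutant, and PHI-1 was lower in the mutant at 2 h and higher at 8 h.

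Some genes had estimates of opposite sign at 2 h and 8 h. A p for the change between these times does not test the value at 8 h by itself. PHI-1 had a difference of -0.39 at 2 h and 1.17 at 8 h (adjusted p = 0.000233 for the change), with wild-type arrays at 6.95 and 6.97 and mutant arrays at 8.06 and 8.20 at 8 h. AT1G26380 went from -1.43 to 1.06 (adjusted p = 0.000625 for the change and 0.0188 for the value at 8 h). SYP121, for a syntaxin of secretion at the plasma membrane, was at 10.17 and 10.16 in wild type and 9.50 and 9.46 in the mutant at 2 h (-0.69 ± 0.09, adjusted p = 0.000911) and at 0.38 at 8 h (adjusted p = 0.00157 for the change). CRK10, for a cysteine-rich receptor kinase, went from -0.78 ± 0.10 (adjusted p = 0.000448) to 0.25 (adjusted p = 0.00334 for the change). Of the 41 cell wall genes 10 passed the test against 8 h, and of the 16 indole glucosinolate genes 4, against 174 of all 6847 probe sets (2.54 percent).

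The light response was then set beside the genotype difference. Of the 294 falls, 237 had a higher mean at 2 h of light than in the dark in wild type and 229 in the mutant, and the median response was 1.12 in wild type and 0.70 in the mutant. Over all 6847 probe sets the medians were -0.21 and -0.34. Of the 67 rises, 46 were lower in light in wild type, with a median of -0.99 against -0.54 in the mutant. These responses share the 2 h arrays with the calls, so they are given as a description. Each of the 6847 has an unadjusted p of at most 0.0237 for the mutant response (limma, mutant dark and 2 h arrays alone). The kept probe sets thus all have a light response in the mutant, so these sizes do not compare wild type and mutant evenly. The test of unequal light responses, run on the same probe sets, is that of the 2 h difference against the dark, which 7 probe sets passed. The response of GSTU12 was 2.05 in wild type and 1.38 in the mutant, that of CYP81D8 3.98 and 3.53, and that of GA3OX1 -2.21 and -1.74, none with a passing difference between genotypes (adjusted p = 0.311, 0.54 and 0.324).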

How the data were processed

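RNA of whole Arabidopsis seedlings was measured on Affymetrix ATH1 arrays. The authors processed the scans with GCOS 1.4, per the submitters' processing notes, and deposited 1 table of linear intensity for 6847 probe sets, summarised by RMA per the file headers. Its intensities run from 3.22 to 10892.5, with array medians of 144 to 161. A second deposited table holds log2 values of 22810 probe sets, centred on each probe set's median. Its columns equal the intensity table within 0.0001 once matched, 2 under their own title and 16 under another, so groups follow the titles of the intensity table, and the second table served as an alternative.

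For the tests, log2 intensities entered limma 3.58.1 (R 4.3.3) with all 18 arrays and 1 mean for each genotype and time, and p-values were adjusted by Benjamini-Hochberg over 6847 probe sets with a threshold of 0.05. The fit had 10 residual degrees of freedom, moderated by a prior of 4.91. Differences are mutant minus wild type. The number of arrays, 2 for each genotype at 2 h, limits the precision. The test was checked on simulated data. Of the probe sets, 6514 name 1 gene, 285 several and 48 none. Each gene in a list is given by its brightest probe set.

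The members and the 38 gene lists and 6 marker lists were chosen with earlier results of these data known. Named genes are the 12 largest falls and 12 largest rises, up to 6 called members of each list (or up to 2 of lowest p where none passed), and up to 5 genes of lowest p in each of 3 tests against another time. Among those chosen after their values were seen are SUC2, CASP1, CASP5, RCA, LHCB3, CYP81F4, APR3 and MYB34. Alternatives were quantile normalization, median centring, leaving out the dimmest 40 percent of probe sets, fitting the compared times alone, array weights, a replicate block, the second table, a robust prior and leaving out each array.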

Additional observations from a re-analysis of the deposited data

Results flagged for a closer look

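The 45 differences below passed a direct test (limma interaction term, adjusted p under 0.05) that the genotype difference at 2 h of light was not the same at another time, for genes named by rule. Each value is the log2 difference between genotypes at 2 h minus that at the other time. No explanation for them was tested, and groups of 2 or 3 arrays are too small for a test of single arrays that stand apart.

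Against the dark there were 5, with AT2G28210 at -1.91, AT1G35210 at -0.99, WRKY40 at -0.93, AT1G33590 at -0.65 and IRT3 at 0.64. Against 4 h there were 4, with AT2G28210 at -1.68, AT1G35210 at -1.17, AT1G33590 at -0.72 and SAUR28 at 1.4.

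Against 8 h there were 36. The indole glucosinolate genes CYP81F2, IGMT2, CYP79B2 and GGP1 stood at -2.81, -1.92, -1.09 and -0.97, and the aliphatic SOT17 at -0.82. Chaperone and heat genes stood at -2.03 for HSP21, -1.18 for Hsp70b, -1.11 for ATERDJ3A, -1.05 for HSP101 and 0.93 for HSFC1, and the endoplasmic reticulum genes BZIP60 and SDF2 at -0.79 and -0.64. Stress and detoxification genes stood at -2.04 for GSTU12, -1.68 for CYP81D8 and -1.25 for BCS1. Transcription factors of stress stood at -1.49 for ERF6, -1.13 for WRKY40, -0.95 for WRKY22 and -0.63 for WRKY46, with the calcium sensor TCH3 at -1.12.

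Cell wall genes stood at -1.55 for PHI-1, -1.24 for XTR6, -0.59 for EXLA3 and 1.11 for EXPA8, and GA3OX1 at 0.89. Sulfate and starvation genes stood at -1.19 for APR1, -0.67 for AT4G35770 and -0.53 for MCCA. LTI78, a dehydration gene not called at 2 h (0.69, adjusted p = 0.164), stood at 1.66. The others were AT1G26380 at -2.49, AT2G28210 at -2.06, AT1G35210 at -1.16, SYP121 at -1.07, CRK10 at -1.03, AT3G46110 at -0.93 and AT1G33590 at -0.52.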

How the results depend on the processing

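The count of 361 at 2 h was 186 once the dimmest 40 percent were left out and 227 with the 2 h arrays fitted alone. Under the rescalings, weights, block and prior it was 312 to 398. The second table gave 320 over its 22810 probe sets, 203 of them shared with the 361. The count at 2 h ran from 88 (without mutant replicate 2) to 367 (without wild-type replicate 2) when an array at 2 h was left out. It was 587 without mutant dark replicate 2, a setting added after seeing the data. The tests against the dark gave 7, and 4 after quantile normalization, 2 after median centring, 1 on the compared times alone, 19 with array weights, 2 with the second table, and 0 to 44 without single arrays. Those against 4 h gave 7, and 12, 5, 13, 12 and 5 in the same order, 2 without the dim probe sets, and 0 to 18 without single arrays. Those against 8 h gave 174, and 93 without the dim probe sets, 315 with array weights, and 65 to 369 without single arrays. With the replicate number as a block the counts were 315 at 2 h (255 shared with the 361), 7 against the dark, 4 against 4 h and 160 against 8 h. The numbers did not pair the samples: same-numbered deviations correlated at 0.09 at 2 h, 0.04 at 4 h, 0.22 at 8 h and -0.03, -0.03 and 0.15 in the dark.

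The 92 named calls kept their sign in each alternative that tested them, and 42 passed in each such alternative that left out no array, where the one without the dim probe sets tested 39 of the 92. Of them 75 passed after quantile normalization, 75 after median centring, 52 on the 2 h arrays alone, 68 with the block and 55 with the second table. Without wild-type replicates 1 and 2 and mutant replicates 1 and 2 the numbers were 33, 68, 43 and 26. Of 41 named genes not called, 4 changed sign: KAT1 at 0.0071 after quantile normalization, 0.0214 after median centring and -0.0845 to 0.0361 without single arrays, SPT at -0.467 to 0.0803, OLEO2 at -0.175 to 0.234 and EPF1 at -0.00036 to 0.303. The causes were not tested. The second table called 117 of the 15963 probe sets outside the first (0.733 percent), 100 lower and 17 higher. Of the 361 calls, 27 had a group mean among the dimmest 5 percent, where the signal limits the size of a fold.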

Other observations

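The genes were also grouped by the molecular function terms of the deposited table, into families chosen after the data were seen. These families hold members of the lists too, so part of their counts repeats those of the lists. Of 141 genes with a receptor kinase term 12 fell and 2 rose at 2 h (9.93 percent, against 5.27 percent of all probe sets), with a median of -0.03. AT1G66880 was at 6.24 and 6.0 in wild type and 5.14 and 5.41 in the mutant (-0.85 ± 0.10, limma, adjusted p = 0.000379). LYK5, the chitin receptor, was at 6.85 and 6.55 against 6.01 and 6.21 (-0.59 ± 0.11, adjusted p = 0.00638). RLP44, a receptor-like protein of cell wall and brassinosteroid signalling, was among the rises, from 5.68 and 5.82 to 6.39 and 6.27 (0.58 ± 0.10, adjusted p = 0.00267).

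Of 93 genes with a calcium ion binding term 10 fell and 1 rose (11.8 percent), with a median of -0.09. CML37, TCH3, CML41, CPK32, NDB2 and CNX1 are among the falls and are in lists described with them. AT5G39670, for a calcium-binding EF-hand protein, was at 7.41 and 7.28 in wild type and 5.99 and 6.28 in the mutant (-1.21 ± 0.12, adjusted p = 0.000105). PBP1, which binds the kinase PINOID, fell from 7.23 and 7.36 to 6.52 and 6.26 (-0.91 ± 0.16, adjusted p = 0.00466). CBL2, a calcineurin B-like sensor of the vacuole membrane, was the rise, from 6.84 and 6.76 to 7.23 and 7.33 (0.48 ± 0.09, adjusted p = 0.00854). Of 68 genes with a carbohydrate binding term 9 fell and 0 rose (13.2 percent), among them the lectin-like gene AT3G16530 at 8.53 and 8.23 against 7.44 and 7.45 (-0.93 ± 0.18, adjusted p = 0.00893). Of 114 ubiquitin ligase genes 4 fell, PUB22 and PUB23 among them, and 0 rose (3.51 percent), and of 120 genes with a chromatin binding term 3 fell and 0 rose (2.50 percent), all MYB factors, with MYB51 among them.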
